A study of Mus musculus with 20 samples.

Results

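The data are 4 of the 20 ATAC-seq libraries of a reprogramming series, the NanogN70+Oct4 and Nanog+Oct4 libraries of day 0 and day 1. ATAC-seq cuts open chromatin with a transposase, so a peak of reads marks DNA that was accessible in the cells. The cells were mouse embryonic fibroblasts (MEFs, carrying an Oct4-GFP reporter), infected with retroviruses for Oct4 together with either Nanog or NanogN70. NanogN70 is NANOG with the first 70 residues of SS18, a BRG1-interacting stretch, fused to its N-terminus. Both groups therefore carried exogenous Oct4 and differed in the form of NANOG. Day 0 followed the infections, and both groups were then moved to the same reprogramming medium. The study's methods describe a later switch, after 7 days or at a set time point, to the medium used for ESCs. The comparison asks which chromatin the fusion made accessible, or left closed, at the very start. The other 16 libraries, days 3 to 12 of both paths, untreated MEFs and 3 libraries of embryonic stem cells (ESCs), were used to follow the regions found here.

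Overlapping peaks from all 20 libraries gave 335767 regions, and any library with a peak inside a region counted as open there. A region open in both NanogN70 libraries and in neither Nanog library was called NanogN70-only, and the reverse Nanog-only. Of 128542 regions open in at least 1 of the 4 libraries, 11785 were NanogN70-only (9.17% of them) and 1748 were Nanog-only (1.36%). There was 1 library per factor and day, and 2 libraries against 2 cannot give a two-sided exact p below 0.333, so the counts are given without a test and include whatever differs between single libraries.

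NANOG is a homeodomain protein of the pluripotency network. BRG1 (Smarca4) is the ATPase of the BAF complex, which slides and evicts nucleosomes, and SS18 is a subunit of that complex. Fibroblast enhancers are commonly held open by AP-1, the family of FOS and JUN dimers, and their closing is an early step of reprogramming. OCT4 is a POU-domain protein that can bind DNA within nucleosomes.

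The transgenes were read first, because retroviral cDNA gives peaks over exons. Over the exons of Nanog the highest summit pileup (reads covering the summit) was 559 and 299 in the Nanog libraries of days 0 and 1 and 428 and 236 in the NanogN70 libraries, and MEFs had no peak there. Over the exons of Ss18 it was 114 and 82 in the NanogN70 libraries, 16 and 13 in the Nanog libraries and 28 in MEFs. The exon reads of Ss18 thus matched the labels. All peaks over exons of Nanog, Pou5f1, Ss18 and the predicted gene Gm1826, 11 to 12 in each of the 4 libraries, were left out of the regions.

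The strongest regions of each kind are shown first, as the DNA around the summit of the highest peak (101 bases, plus strand, GRCm38/mm10). The regions are the first 4 of each ranking that lay outside UTRs. Capitals mark the letters TAATGG (a NANOG homeodomain core), ATGCAAAT (OCT), ACAATGG or ACAAAGG (SOX), TGACTCA (AP-1) and GGAATG (TEAD), on either strand.

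NanogN70-only, intergenic, nearest to Fign, chr2:64366604-64366704: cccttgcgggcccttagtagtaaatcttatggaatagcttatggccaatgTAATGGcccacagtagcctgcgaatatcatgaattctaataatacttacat
NanogN70-only, intron of Rarb, chr14:16439651-16439751: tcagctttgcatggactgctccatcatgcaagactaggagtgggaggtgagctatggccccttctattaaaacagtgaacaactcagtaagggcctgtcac
NanogN70-only, intergenic, nearest to Gphb5, chr12:75444155-75444255: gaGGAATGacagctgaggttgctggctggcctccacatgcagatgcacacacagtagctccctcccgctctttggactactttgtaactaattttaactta
NanogN70-only, intergenic, nearest to Elovl4, chr9:83771164-83771264: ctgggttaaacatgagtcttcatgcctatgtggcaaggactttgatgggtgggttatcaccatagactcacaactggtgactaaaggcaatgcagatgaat
Nanog-only, intron of Lipc, chr9:70942724-70942824: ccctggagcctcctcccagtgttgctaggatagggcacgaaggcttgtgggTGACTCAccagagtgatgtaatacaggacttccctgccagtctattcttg
Nanog-only, intron of Lama2, chr10:27117942-27118042: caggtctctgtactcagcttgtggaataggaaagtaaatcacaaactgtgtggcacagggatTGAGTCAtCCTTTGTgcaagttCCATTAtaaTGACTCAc
Nanog-only, intron of Lrig1, chr6:94630541-94630641: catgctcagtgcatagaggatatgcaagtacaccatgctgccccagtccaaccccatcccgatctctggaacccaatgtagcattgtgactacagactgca
Nanog-only, intergenic, nearest to Gm597, chr1:28841545-28841645: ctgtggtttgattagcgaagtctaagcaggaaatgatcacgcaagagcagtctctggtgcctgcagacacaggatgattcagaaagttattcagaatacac

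The region near Fign held TAATGG at its summit, and the region in Lipc held TGACTCA next to its summit. The region in Lama2 held TGACTCA on both strands within the window. Over all members the same letters separated the lists, as described below.

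The counts leaned to NanogN70, and by how much depended on which peaks were kept. NanogN70 day 0 had 107038 peaks, against 77662 for NanogN70 day 1, 69575 for Nanog day 0 and 65872 for Nanog day 1. At the 14212 regions open in all 20 libraries the median pileup was 24 reads in NanogN70 day 0 and 16 in each of the other 3. Read totals were not analysed here, so read depth and enrichment cannot be told apart as sources of that higher pileup. With only the 44000 peaks of highest score kept in each library, 4251 of 69385 regions were NanogN70-only (6.13%) and 2394 were Nanog-only (3.45%). NanogN70-only regions were then 63.97% of the differential regions, against 87.1% with all peaks. The peak ranked at 44000 had a score (-10 log10 of the MACS p-value) of 140.73 in NanogN70 day 0, 86.21 in NanogN70 day 1, 77.37 in Nanog day 0 and 70.79 in Nanog day 1, and the next peak had the same score to 2 decimals in each.

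**Figure D1:**
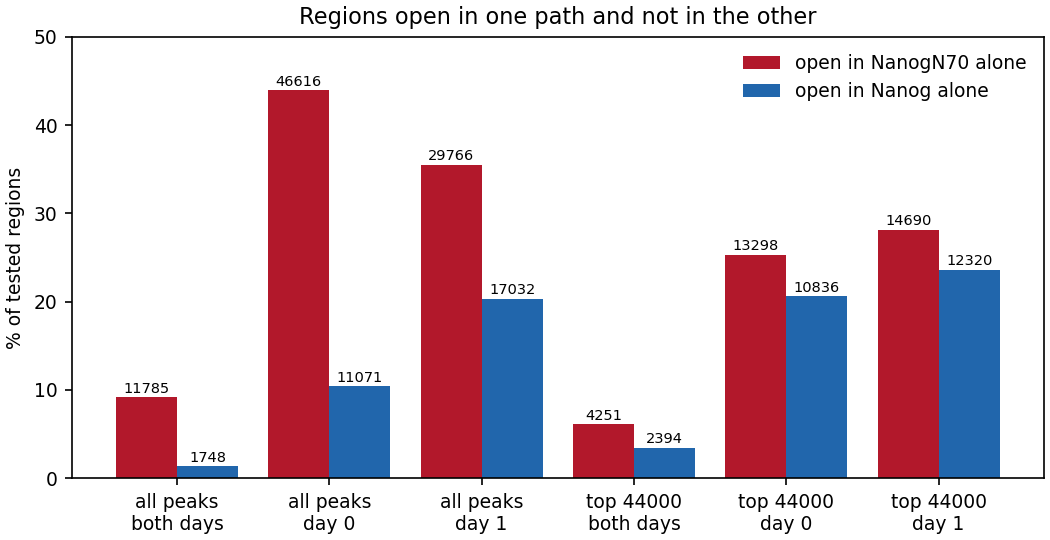
Share of the tested regions (y axis, %) that were open in NanogN70 and not in Nanog (red) or the reverse (blue), over both days or for each day alone, with all peaks and with the top 44000 peaks of each library; numbers above the bars are regions. The red bar is the taller of each pair, and the gap is smallest with the top 44000 peaks.

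Each day alone gave the same lean. On day 0, 46616 regions were open in NanogN70 and not in Nanog and 11071 the reverse. On day 1, where the median pileup at common regions was equal, the counts were 29766 and 17032. With the top 44000 peaks they were 13298 and 10836 on day 0 and 14690 and 12320 on day 1. The large drop from 1 day to both days shows how many single-day differences were not found again: the overlap of open regions between the 2 days of NanogN70 (Jaccard index, shared regions divided by all regions open in either library) was 0.453, and between the factors on day 0 it was 0.456.

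The calls that held with all peaks and with the top 44000 were fewer: 2553 NanogN70-only regions (1.99% of tested regions) and 400 Nanog-only regions (0.311%). They are called the strict regions below. They made up 21.7% of the NanogN70-only regions of all peaks and 60.1% of those of the top 44000. For Nanog-only regions the shares were 22.9% and 16.7%. Of the 2394 Nanog-only regions of the top 44000, 83.3% held a weaker peak in a NanogN70 library. Of the 4251 NanogN70-only regions, 39.9% held a weaker peak in a Nanog library.

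Most members were modest peaks. In the NanogN70-only regions the median pileup was 8 reads on day 0 (range 4 to 38) and 6 on day 1 (range 3 to 42). In the Nanog-only regions it was 6 reads on both days (ranges 4 to 20 and 3 to 17). Regions open in all 4 libraries had medians of 11 to 18 reads. Strict NanogN70-only regions had medians of 11 and 8 reads, and strict Nanog-only regions 8 and 7.

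Most NanogN70-only regions had no peak in MEFs or ESCs, whereas most Nanog-only regions had a peak in MEFs. Of the 11785 NanogN70-only regions, 73.8% had a peak neither in MEFs nor in ESCs (at least 2 of 3 ESC libraries), 21.5% were open in MEFs (95% exact interval 20.8 to 22.3%) and 4.63% were open in ESCs and closed in MEFs (4.26 to 5.03%). Of the 1748 Nanog-only regions, 27.4% were open in neither, 69.2% were open in MEFs (67.0 to 71.4%) and 3.38% were open in ESCs alone (2.58 to 4.33%). The intervals cover counting error only.

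Each differential region was open on both days of its path. Regions open in 1 library of each path were also open in 2 of the 4 libraries, but mostly in those of day 0. Of them, 13033 were open in NanogN70 day 0 and 10737 in Nanog day 0, so the comparison is not balanced for day. Of these 15897 regions, 66.6% were open in MEFs, 2.91% in ESCs alone and 30.5% in neither. The Nanog-only list was close to them, and the NanogN70-only list stood apart. Among all tested regions 51.7% were open in MEFs and 3.22% in ESCs alone. The order held with the top 44000 peaks, with the state in MEFs and ESCs from all peaks, where 26.8% of NanogN70-only and 84.6% of Nanog-only regions were open in MEFs. In the strict lists the shares were 17.5% and 72.8%. The shares open in ESCs alone were 4.09% of NanogN70-only and 1.30% of Nanog-only regions with the top 44000 peaks and states from all peaks. With states also from the top 44000 peaks this order turned, to 4.19% and 7.81%. The shares open in MEFs were 9.24% and 57.4% under that setting. The order of the shares open in ESCs alone also turned, narrowly, with regions chosen on day 1 alone, to 4.41% and 4.50%, where 24.1% and 58.6% were open in MEFs.

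**Figure D2:**
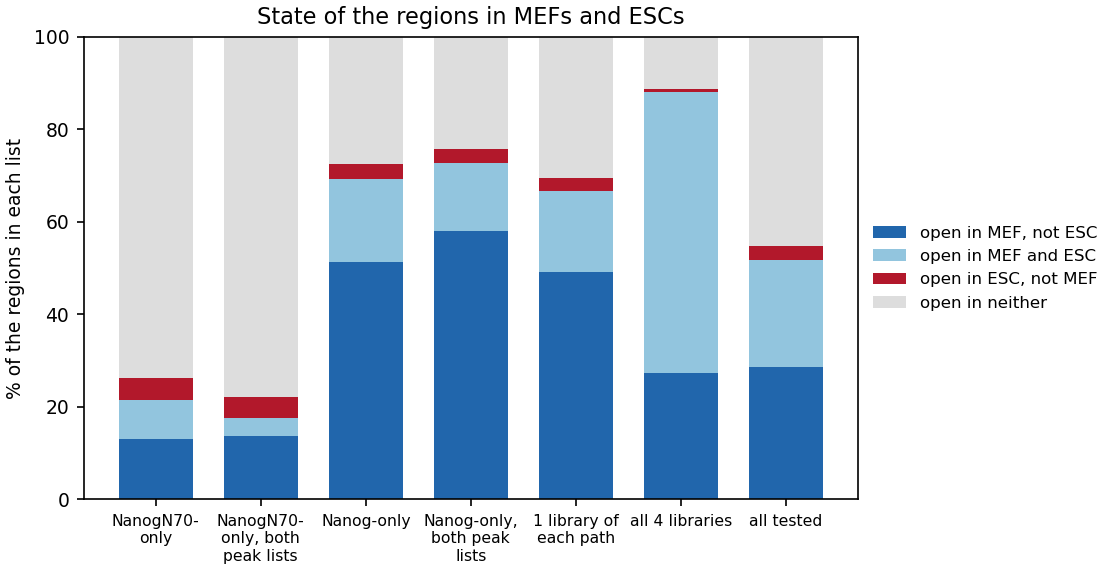
State of the regions of each list in MEFs and ESCs, as stacked shares of the list (y axis, %). The NanogN70-only lists are mostly grey (no peak in MEFs or ESCs), and the Nanog-only lists are mostly blue (a peak in MEFs), close to the regions open in 1 library of each path.

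Only 546 NanogN70-only regions were open in ESCs alone. The regions named here were chosen after their values were seen, as strong ones of that set. An intronic region of Egfem1 (chr3:29135937-29136613) had pileups of 15 and 22 reads on days 0 and 1 of NanogN70 and was open on all 6 later NanogN70 days and on 3 later Nanog days. An intronic region of Thada (chr17:84351182-84351707) had 20 and 18 reads and was open on 6 later NanogN70 days and 2 later Nanog days. An intronic region of Kdm2b (chr5:122961609-122962261), which encodes a CpG-island-binding Polycomb protein, had 11 and 13 reads, was open on 6 later NanogN70 days and on no Nanog day of the series. Other strong regions of the set were open on equally many later days in both paths. These lay in introns of Asap1 (5 days), Eif1a (4) and Ube4b (5), and near Atp6v0a1 (6). Of the 546 regions, 217 were open on day 12 of NanogN70. Of the 59 Nanog-only regions open in ESCs alone, 22 were open on day 12 of Nanog, a similar share.

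The members were then followed on days 3, 5, 7, 8, 10 and 12, libraries that the choice did not use. NanogN70-only regions stayed more often open in NanogN70, most of all until day 7. In NanogN70 the share open was 36.6%, 46.8%, 34.7%, 21.03%, 9.71% and 11.6% on these days. In Nanog it was 14.5%, 28.8%, 24.5%, 18.8%, 8.77% and 8.78%. The share thus also rose in Nanog after day 3, and the paths came close from day 8. By the study's methods the medium was changed after 7 days or at a set time point. Time and medium cannot be told apart there. The mean over days was 26.7% in NanogN70 and 17.4% in Nanog, a difference of 9.37 percentage points, higher in 6 of 6 days (two-sided exact sign-flip test over days, p = 0.0312, adjusted over 2 tests 0.0312, the smallest p that 6 days allow). Without day 3, whose NanogN70 library had a median pileup of 60 reads at common regions and stood apart from the rest, the difference was 6.83 points. The days are successive libraries of 1 path each, so this p measures the spread between days. With regions chosen on 1 early day alone the difference was 5.34 points for day 1 (exact p = 0.125) and 2.46 points for day 0 (exact p = 0.281).

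Nanog-only regions stayed more often open in Nanog. The share open in Nanog was 36.6%, 39.1%, 42.1%, 46.5%, 28.0% and 16.6%, and in NanogN70 22.1%, 19.2%, 20.8%, 14.99%, 12.9% and 15.4%. The means were 34.8% and 17.6%, a difference of -17.3 points, lower in NanogN70 on 6 of 6 days (two-sided exact sign-flip test, p = 0.0312, adjusted 0.0312). Part of this lean was general: regions open in all 4 early libraries were also less often open in NanogN70, by 4.77 points on day 12 and by 13.6 points on day 10. With that difference taken off each day, the Nanog-only difference was -7.97 points (exact p = 0.0938), and the NanogN70-only difference grew to 18.7 points (exact p = 0.0312). With the difference at regions open in 1 library of each path taken off instead, a reference chosen after the data were seen, they were -11.6 and 15.1 points (exact p = 0.0312 for each). With regions chosen on day 0 alone the Nanog-only difference was -6.52 points (exact p = 0.0625).

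**Figure D3:**
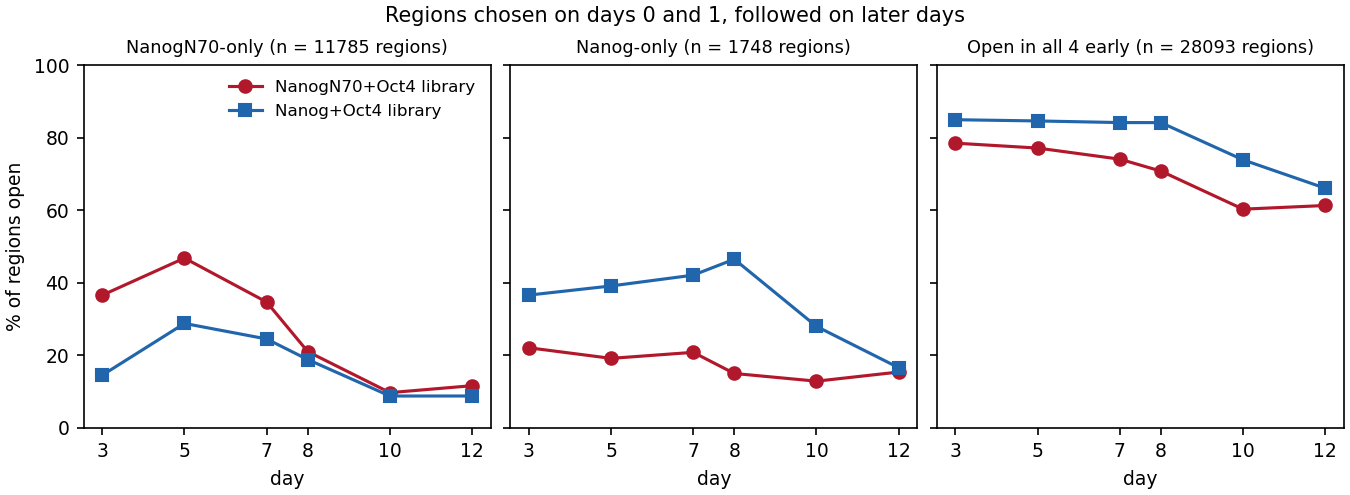
Share of regions open (y axis, %) on each later day (x axis) in the NanogN70+Oct4 libraries (red circles) and the Nanog+Oct4 libraries (blue squares), 1 library per point, for the 2 differential lists and for regions open in all 4 early libraries. The red line lies above the blue one for NanogN70-only regions and below it for the other 2 sets, and the lines meet closest on days 8 to 12 in the first panel and on day 12 in the second.

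Split by MEF state, the 9246 NanogN70-only regions closed in MEFs were open in 33.1% and 44.4% of cases in NanogN70 on days 3 and 5, against 10.0% and 24.1% in Nanog. By day 12 these were 5.61% and 3.73%. The 2539 NanogN70-only regions open in MEFs did not keep the lean on every day: on day 8 the share open was 42.3% in NanogN70 and 48.5% in Nanog, and the mean difference of 6.03 points did not pass the test (exact p = 0.125). Few lasted to the end: 43.2% of NanogN70-only regions were open on no later NanogN70 day, 5.40% were open on all 6, and 32.4% were open in no other library of the series. Among strict NanogN70-only regions 31.6% were open on no later NanogN70 day, and 60.2% were open on day 5. Of the Nanog-only regions, 34.7% were open on no later Nanog day, 7.55% on all 6 and 12.0% in no other library of the series.

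The sequence under the summits differed between the lists. The letters TAATGG, the core bound by the NANOG homeodomain (both strands, within 25 bp of the summit), stood in 4.86% of NanogN70-only regions (573 of 11785, 95% exact interval 4.48 to 5.27%), in 1.09% of Nanog-only regions (19 of 1748, 0.656 to 1.69%), in 2.04% of regions open in 1 library of each path and in 2.64% of all tested regions. NanogN70-only regions were poorer in G and C, with a mean GC content of 42.1% ± 7.22 (SD over regions) against 47.9% ± 7.14 in Nanog-only and 46.5% in all tested regions. Tested regions reweighted to the GC content of the NanogN70-only list held TAATGG in 3.16%. In the strict lists the shares were 5.80% and 0.75%. Among regions closed in MEFs they were 5.36% of NanogN70-only, 1.49% of Nanog-only and 3.62% of tested regions.

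The AP-1 letters TGACTCA went the other way. They stood in 16.8% of Nanog-only regions (294 of 1748, 15.1 to 18.7%), in 4.62% of NanogN70-only regions (545 of 11785, 4.25 to 5.02%), in 8.90% of regions open in 1 library of each path and in 7.56% of all tested regions. In the strict lists the shares were 19.5% and 4.07%. The difference was not limited to fibroblast regions, since among regions closed in MEFs the shares were 10.6% of Nanog-only and 4.11% of NanogN70-only regions. Within the Nanog-only list, 22.3% of the regions closed on Nanog day 5 held TGACTCA, and 8.33% of those open on that day, against 9.16% and 5.10% of all tested regions split the same way. Within the NanogN70-only list, 6.92% of the regions closed on NanogN70 day 5 held it, against 2.01% of those open then. All tested regions gave 10.4% and 2.95% in the same split, a like contrast.

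The octamer ATGCAAAT, read by POU factors such as OCT4, stood in 1.37% of NanogN70-only regions (1.17 to 1.60%), 0.801% of Nanog-only regions (0.439 to 1.34%) and 0.831% of tested regions, and in 1.03% of tested regions at the GC content of the NanogN70-only list. Split by MEF state the 2 lists were close. The shares of NanogN70-only and Nanog-only regions were 1.64% and 1.49% when closed in MEFs, and 0.394% and 0.496% when open in MEFs. The SOX letters stood in 1.51% of NanogN70-only, 0.801% of Nanog-only (0.439 to 1.34%) and 1.53% of tested regions. The TEAD letters GGAATG were rarer in both lists, at 3.67% and 3.95%, than in tested regions (5.08%) and in regions open in 1 library of each path (8.15%). The RUNX letters AACCACA stood in 2.20%, 1.77% and 1.94% of NanogN70-only, Nanog-only and tested regions. The CTCF motif stood in 1.20%, 1.32% and 1.46%, and in 0.353% of strict NanogN70-only regions (9 of 2553). A match is a description of letters and not of binding.

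**Figure D4:**
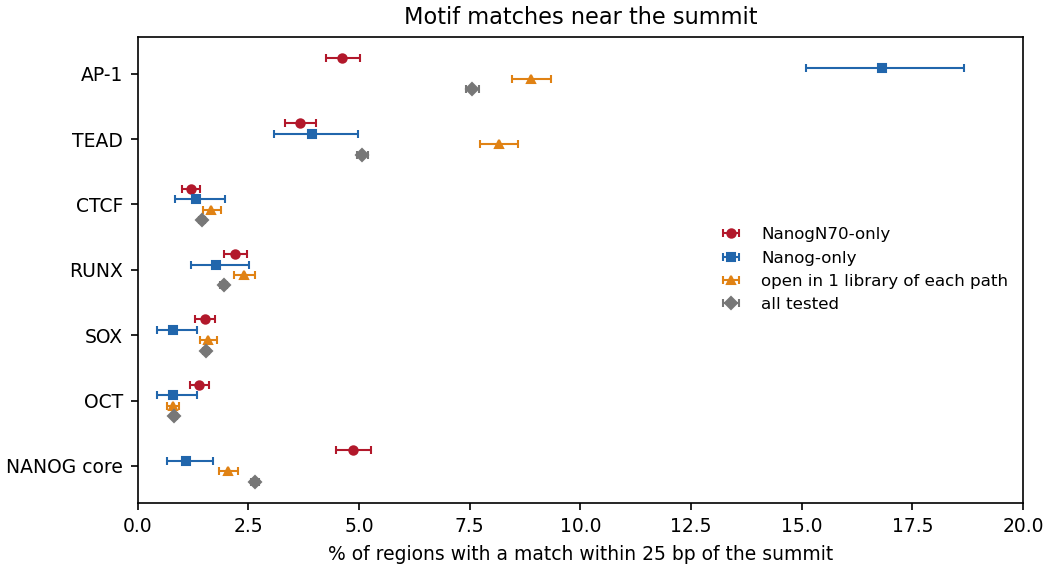
Share of regions (x axis, %) with a match to each motif within 25 bp of the summit, for NanogN70-only, Nanog-only, open in 1 library of each path and all tested regions. Bars are 95% exact binomial intervals (counting error only); NanogN70-only regions lead for the NANOG core and Nanog-only regions for AP-1.

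Both lists lay away from start sites. Within 2 kb of a start site were 14.6% of NanogN70-only regions (14.0 to 15.3%) and 16.2% of Nanog-only regions (14.6 to 18.1%), against 15.6% of regions open in 1 library of each path, 22.5% of tested regions and 49.0% of regions open in all 4 libraries. Introns held 48.9% and 42.7% of the 2 lists, and intergenic DNA 33.4% and 38.0%. No CpG stood within the 100 bp on each side of the summit in 23.4% of NanogN70-only and 14.0% of Nanog-only regions, and in 18.4% of tested regions. Repeat-masked bases made up 14.1% and 13.8% of these windows, against 13.0% in tested regions.

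The 12 strict NanogN70-only regions of highest score were all closed in MEFs, and 1 of them was open in ESCs. The highest lay in an exon of Caprin1 (chr2:103765740-103766471), an RNA-binding protein of stress granules. It had 38 and 42 reads on days 0 and 1 of NanogN70, then 22, 19, 24 and 11 reads on days 3, 5, 7 and 8 and no peak on days 10 and 12, and no peak in any Nanog library, MEFs or ESCs. The region near Fign (a microtubule-severing ATPase), 268.6 kb from its start site, had 18 and 17 reads, then 10, 20, 11 and 4, and in Nanog a single peak of 4 reads on day 3. The region in an intron of Rarb, which encodes a retinoic acid receptor, had 18, 16, 15, 17, 19 and 10 reads from day 0 to day 8 of NanogN70. In Nanog it had 5, 8 and 4 reads on days 5, 7 and 8. The same late and weaker appearance in Nanog was seen for the region near Gphb5, with 21 and 23 reads at the start in NanogN70 and 7 to 9 reads on days 3 to 8 of Nanog.

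The other regions of this set differed in how long they lasted. The region near Elovl4, a fatty acid elongase, had 30 and 19 reads and then 10, 13 and 8 on days 3, 5 and 7, with no peak in any Nanog library. An intron of Dlgap1, a postsynaptic scaffold, had 23 and 20 reads at the start and 7 and 5 on days 5 and 7. An intron of Yeats2, a histone-acetyl reader, had 14 and 16 reads and then 6 on day 5 alone. A region 123.0 kb from the start site of Smad3, a transducer of TGF-beta signals, was open on all 8 NanogN70 days. It had 33 reads on day 5 and 37 on day 12, where the medians at common regions were 23 and 41. In Nanog it first had a peak on day 5 and reached 22 reads on day 12. An intron of Cfap77 was open on all 8 NanogN70 days with 9 to 14 reads, and in Nanog it had 7 reads on days 3 and 7. The introns of Abca8a and Prkd1 had 21 and 14 and 23 and 13 reads at the start and no peak on days 10 and 12. In Nanog Abca8a had 4, 5 and 4 reads on days 5, 7 and 8, and Prkd1 5 and 7 reads on days 5 and 7.

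The 12 strict Nanog-only regions were weaker, and 9 of them were open in MEFs. Pileups are not scaled for depth. At the regions open in all 20 libraries the median was 39 reads in MEFs and 16 on days 0 and 1 of Nanog. The region in an exon of Fndc7 (chr3:108855324-108856251) had 13 reads on both days of Nanog and 32 in MEFs, was open on all 6 later Nanog days and had a peak in NanogN70 on day 3 alone. The intronic region of Lipc, the hepatic lipase gene, had 31 reads in MEFs, 11 and 9 at the start of Nanog and 6 to 15 on days 3, 7, 8 and 10, and in NanogN70 a peak of 7 reads on day 8. The intronic region of Lama2, a laminin chain of mesenchymal basement membrane, had 17 reads in MEFs, 9 and 8 at the start of Nanog and no peak in any NanogN70 library. An intron of Sdk2, an adhesion protein, had 27 reads in MEFs, 7 and 10 at the start and 34 and 36 on days 7 and 8 of Nanog, and none in NanogN70. The region 554.2 kb from Fbxo33 had 47 reads in MEFs, 13 and 8 at the start of Nanog and no other peak.

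Of the 3 Nanog-only regions closed in MEFs, the intron of Lrig1, a negative regulator of EGF receptors, had 17, 12 and 11 reads on days 0, 1 and 3 of Nanog and no other peak. A region 452.8 kb from Id2 was open on all 8 Nanog days with 5 to 9 reads and in no NanogN70 library. A region 195.5 kb from Sp8 was open in all 3 ESC libraries. In Nanog it had 9 and 8 reads on days 0 and 1, no peak on days 3 to 8, and 7 and 20 reads on days 10 and 12. In NanogN70 it had no peak up to day 5 and then 12, 13, 33 and 30 reads on days 7, 8, 10 and 12. Among the 12 the AP-1 letters stood within 25 bp of 4 summits, in Lipc, Lama2, Sdk2 and near Fbxo33, and at none of the 12 NanogN70-only summits.

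**Figure D5:**
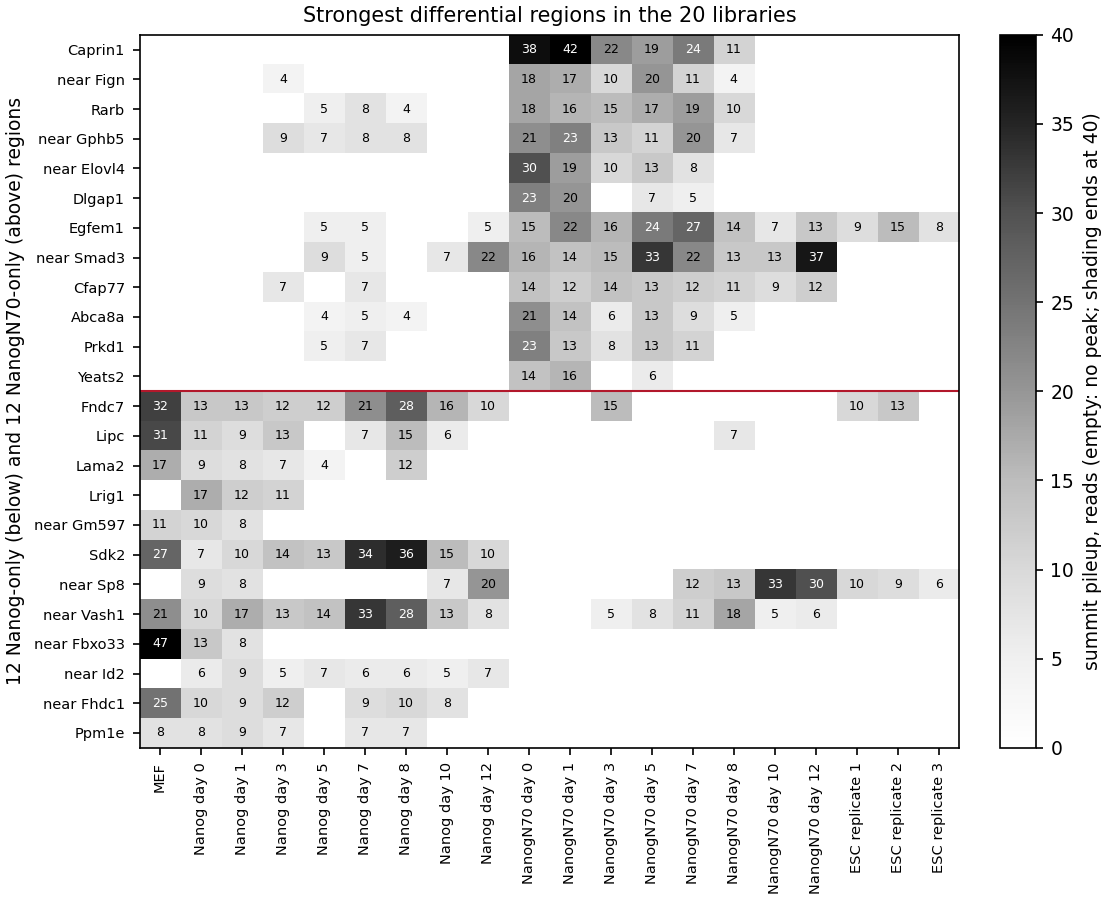
Summit pileup in reads (grey scale and numbers; empty cells have no peak) of the 12 strongest strict regions of each kind (rows, named by the gene they lie in or the nearest coding gene) in the 20 libraries (columns). The NanogN70-only regions above the line are empty in MEFs and mostly fade by day 10, and 9 of the 12 Nanog-only regions have a peak in MEFs.

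Genes of set lists were counted by the tested regions nearest to them (start site within 100 kb). For all protein-coding genes 8.93% of such regions were NanogN70-only and 1.35% Nanog-only. Near 48 fibroblast and mesenchymal genes the shares were 9.60% (63 of 656) and 0.915% (6), close to those values. Both kinds could stand side by side. In an intron of Tbx15, a mesenchymal T-box factor, the region chr3:99263404-99263968 was Nanog-only (11 and 11 reads, open in MEFs) and its neighbour chr3:99264386-99265097 was NanogN70-only (16 and 10 reads, closed in MEFs). Prrx1, a limb-mesenchyme homeobox gene, held a Nanog-only intronic region with 11 and 6 reads and a TGACTCA match, and a NanogN70-only region at an internal start site with 13 and 9 reads.

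Near 50 pluripotency genes 20 of 240 tested regions were NanogN70-only (8.33%) and 8 were Nanog-only (3.33%), beside 8.93% and 1.35% near all coding genes. The NanogN70-only region of highest score lay 3.35 kb from the start site of Dusp6, with 20 and 13 reads in NanogN70 and a peak in MEFs. The promoter region of Tdgf1, which encodes the NODAL co-receptor CRIPTO, had 15 and 10 reads in NanogN70 and was also open in MEFs. A region at the start site of Tcf15 had 9 and 9 reads, and one near Lefty2, a NODAL antagonist, 10 and 6 reads; MEFs and the 3 ESC libraries had a peak at both. A region in Sox2ot, 17.6 kb from Sox2, had 8 and 13 reads, and an intron of Esrrb, an orphan nuclear receptor of naive cells, 6 and 4 reads; neither passed the top 44000. Of the Nanog-only regions 2 lay 41.0 and 41.3 kb from Mycn, a MYC family transcription factor, with 7 and 6 and with 8 and 7 reads in Nanog; the latter was also differential with the top 44000 peaks, and MEFs had a peak at both. An intron of Tfcp2l1, a transcription factor of naive cells, had 6 and 6 reads, and regions near Gbx2 and Pou5f1, which encodes OCT4, had 9 and 9 and 12 and 7 reads. Gbx2 also lay near 3 NanogN70-only regions, 1 of them at its start site, with 11 and 9, 8 and 8, and 6 and 7 reads in NanogN70. The other Nanog-only regions lay near Fbxo15, Spry4 and Tead4. The promoters of the pluripotency list had a peak in 30 and 25 of 50 genes in Nanog on days 0 and 1, in 34 and 33 in NanogN70, in 39 in MEFs and in 48 in ESCs. Of all 21911 coding genes 61.4% and 62.2% had a promoter peak in Nanog, 65.8% and 62.2% in NanogN70, 70.4% in MEFs and 72.2% in ESCs. Of the 11 start sites of the miR-302 and miR-290 clusters, 4 had a peak in each of the first 3 libraries and 9 in NanogN70 day 1, where the shared region of the miR-302 cluster had 6 reads.

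Genes of the BAF complex and of the AP-1 and TEAD families had NanogN70-only shares near that of all coding genes (8.93%) or below it. The Nanog-only shares near AP-1 and TEAD genes were above that of all coding genes (1.35%), on few regions. Near 30 BAF subunit genes 19 of 204 regions were NanogN70-only (9.31%) and 1 was Nanog-only. An intron of Bicral had 18 and 13 reads, an intron of Smarcc1, a core subunit, 15 and 11, and an intron of Smarca4 itself 9 and 12. Near 23 AP-1 and related genes 12 of 208 regions were NanogN70-only (5.77%) and 6 Nanog-only (2.88%). Fos lay near NanogN70-only regions with 18 and 12 and with 6 and 6 reads, and Jun near a Nanog-only region in Junos with 5 and 5 reads. Near 22 genes of the TEAD and YAP pathway 14 of 272 were NanogN70-only (5.15%) and 8 Nanog-only (2.94%). An intron of Vgll4, which competes with YAP for TEAD, had 15 and 20 reads in NanogN70, held TAATGG within 25 bp of its summit and was open on all 6 later NanogN70 days and on 1 Nanog day. Vgll4 also lay near 2 Nanog-only regions, an intronic one with 7 and 7 reads and an intergenic one with 6 and 4 reads in Nanog. Introns of Tead1 and of Nf2, an upstream inhibitor of YAP, were Nanog-only with 9 and 6 and with 8 and 7 reads. Both genes also lay near NanogN70-only regions, in introns of Tead1 with 8 and 6 and with 10 and 4 reads, and at start sites of Nf2 with 7 and 10 and with 6 and 5 reads.

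Markers of other cells were read at promoters with a peak. Of 48 fibroblast genes 44 and 43 were open in Nanog on days 0 and 1, 47 and 44 in NanogN70 and 48 in MEFs. Of 30 leukocyte genes these numbers were 10, 8, 11 and 7 (14 in MEFs), and of 14 endothelial genes 6, 7, 7 and 7 (10 in MEFs). Of 14 neuron genes they were 8, 9, 11 and 10 (13 in MEFs), and of 12 hepatocyte genes 1, 1, 3 and 2 (3 in MEFs). Among the 4 libraries the numbers were highest or shared highest in NanogN70 day 0 for each of these lists, as was the share over all coding genes (65.8%). The part of other cells in the results was not tested.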

How the data were processed

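ATAC-seq libraries were compared by their peak lists. The authors trimmed reads with Trim Galore 0.6.4, aligned them to mm10 with Bowtie2 2.4.5 and filtered them with SAMtools 1.16.1. They called peaks per library with MACS 1.4.2, per the labels and the study's methods. The deposited peak files give a score per peak (-10 log10 p, 50 or more). The deposited summit files give the signal at each summit, as whole-number pileups not scaled for depth. ESC libraries were grouped by title.

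Peaks on chromosomes 1 to 19, X and Y were merged where they overlapped by 1 bp over the 20 libraries. Regions were placed by the summit of their strongest peak in the 4 libraries, with GENCODE M21 and the GRCm38 sequence. On all 21 chromosomes the peaks ended inside that sequence. Promoters were 2 kb around any start site. Nearest genes were protein-coding and within 100 kb for gene lists. Motifs were searched as letters in 51 bp. Named regions were the 12 per direction with the highest lower score of their 2 open libraries, among regions differential with all peaks and with the top 44000. Intervals are Clopper-Pearson at 95%. Later days were tested by all 64 sign flips. Region calling was tested on simulated peak lists. The members and lists were chosen with earlier results of these data known. Python 3.11.15, pandas 2.3.3 and SciPy 1.17.1 were used.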

Additional observations from a re-analysis of the deposited data

How the results depend on the processing

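Direction held under every alternative run: NanogN70-only regions outnumbered Nanog-only ones, and neither later-day difference changed sign. With the top 44000 peaks there were 4251 NanogN70-only regions, 63.97% of the differential ones, and with every state taken from the top 44000, 4.19% of NanogN70-only and 7.81% of Nanog-only regions were open in ESCs alone, the reverse order of the main values. With scores of at least 100 there were 6940 and 524 regions (93.0% NanogN70-only), of which 4.18% and 1.53% were open in ESCs alone. Merging over the 4 libraries gave 86.3%. Leaving out day 0 or day 1 gave 29766 to 46616 NanogN70-only and 11071 to 17032 Nanog-only regions (63.6 to 80.8% NanogN70-only). It lowered the later-day differences to between 2.46 and 5.34 points (NanogN70-only, exact p = 0.281 without day 1 and 0.125 without day 0) and to between -12.3 and -6.52 points (Nanog-only, exact p = 0.0625 without day 1). Leaving out a day or an ESC replicate gave 3.62 to 4.41% and 2.80 to 4.50% open in ESCs alone; without day 0 the order turned (4.41% of NanogN70-only and 4.50% of Nanog-only regions). Without later day 3 the differences were 6.83 and -17.8 points, each at the smallest exact p of 5 days, 0.0625. Taking off the difference at regions open in all 4 early libraries left -7.97 points for Nanog-only regions (exact p = 0.0938), and that at regions open in 1 library of each path, added after the data were seen, -11.6 points (exact p = 0.0312). In a split added after the data were seen, NanogN70-only regions open in MEFs differed by 6.03 points (exact p = 0.125). With motif windows of 50 or 100 bp the NANOG core, AP-1 and OCT shares of NanogN70-only regions, and the NANOG core and AP-1 shares of Nanog-only regions, kept their direction against all tested regions. Small differences turned: SOX in NanogN70-only regions minus all tested went from -0.022 points to 0.154 and 0.273, and CTCF in Nanog-only regions from -0.142 to 0.254 and 0.65. TEAD, lower in NanogN70-only than in Nanog-only regions at 25 bp, was higher at 100 bp (14.1% and 12.9%).

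The pileups of 3 to 8 reads in most members mean that a missing peak is not shown to be closed chromatin. The causes of the changes above were not tested.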

Other observations

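Other fixed lists gave counts on few regions. Near 41 neural and patterning genes 23 of 204 tested regions were NanogN70-only (11.3%) and 1 was Nanog-only, among them regions near Tlx3, a sensory-neuron homeobox gene, with 22 and 10 and with 12 and 10 reads. Near 14 neuron marker genes the count was 16 of 110 (14.5%), with 12 and 10 reads in an intron of Elavl4, an RNA-binding protein of neurons. Near 35 interferon genes 8 of 90 were NanogN70-only (8.89%). Near 30 genes of cell cycle barriers 18 of 236 were (7.63%), with 17 and 18 reads in an intron of Mdm4, a p53 inhibitor, and a Nanog-only region near Cdkn2b with 9 and 5 reads. Near 20 SOX genes the count was 8 of 118 (6.78%), near 15 POU genes 10 of 84 (11.9%), near 8 RFX genes 9 of 68 (13.2%, 6 of them among 23 regions near Rfx3, a ciliary transcription factor), near 32 epithelial genes 10 of 142 (7.04%), near 30 leukocyte genes 6 of 94 (6.38%), near 14 endothelial genes 7 of 102 (6.86%), near 12 hepatocyte genes 6 of 31 (19.4%) and near 15 loci named by the study 5 of 59 (8.47%). All protein-coding genes gave 8.93%.

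The 1961 strict NanogN70-only regions within 100 kb of a coding start site lay near 1676 genes. Some genes had several, named here after their values were seen. Foxp1 and Ptprm had 5 strict regions each, of 75 and 56 tested regions. Gria3, a glutamate receptor gene, and Zbtb20 had 4 strict regions each. With all peaks 9 of 17 tested regions were NanogN70-only at Gria3 and 13 of 58 at Zbtb20.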
